A study of Homo sapiens with 4 samples.

Results

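The genes described here are the 10 that carry the core of small-RNA processing and silencing: AGO1, AGO2, AGO3 and AGO4, TNRC6A, DROSHA, DGCR8, XPO5, DICER1 and TARBP2. They were chosen by symbol from a table of 64252 genes, each symbol matched 1 row, and all 10 were among the 18775 genes abundant enough to be tested. RNA was sequenced from the human MYCN-amplified neuroblastoma line SK-N-BE(2). A control hairpin RNA was used in 2 libraries (shControl), and in the other 2 a hairpin against CDK5RAP3 (shCDK5RAP3), a partner of the UFM1 ligase at the endoplasmic reticulum. Both groups share the cell line and the presence of a hairpin. All libraries come from a single line. Not given in the sources used here: which hairpins were used, when cells were harvested and how cultures were split into replicates. The p-values therefore measure only the spread between these libraries.

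MicroRNAs are cut from long nuclear transcripts by the Microprocessor, in which DROSHA is the nuclease and DGCR8 the RNA-binding partner. XPO5 (exportin 5) carries the hairpin precursor to the cytoplasm, where DICER1, helped by the double-stranded RNA-binding protein TARBP2, removes the loop. An Argonaute protein keeps a single strand and finds messenger RNAs that match its seed, and TNRC6A (GW182) bridges Argonaute to the deadenylases that shorten their tails. Short hairpin RNAs given to cells use the same export, dicing and loading steps. In neuroblastoma this machinery is known for the let-7 family, which targets MYCN and is held down by LIN28B, and for the miR-17 cluster, which MYCN switches on.

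Transcripts of the silencing machinery are themselves known to be cut or targeted by parts of it, and a few sequences show where. The 2 hairpins annotated inside DGCR8 exons are shown first, because the Microprocessor is known to cut the DGCR8 transcript there. MIR3618 (GRCh38 chr22:20085746-20085833, plus strand) lies before the coding start in 3 of the 4 coding transcripts of GENCODE, and MIR1306 (chr22:20086058-20086142, plus strand) lies in the coding sequence of all 4. Next come miR-103a and miR-107, which are known to target DICER1, then let-7a and miR-17, which belong to neuroblastoma biology. Mature sequences are from RefSeq (GRCh38.p14), 5′ to 3′, and capitals mark the seed, bases 2 to 8.
miR-3618: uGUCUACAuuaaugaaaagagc
miR-1306-5p: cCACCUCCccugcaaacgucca
miR-1306-3p: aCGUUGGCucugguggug
miR-103a-3p: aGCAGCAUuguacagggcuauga
miR-107: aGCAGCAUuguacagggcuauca
let-7a-5p: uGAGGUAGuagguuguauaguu
miR-17-5p: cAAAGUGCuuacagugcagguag
miR-103a-3p and miR-107 share their seed, and the other miRNAs listed each have a seed of their own.

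The reverse complement of the seed that miR-103a and miR-107 share, ATGCTGC, occurs 5 times in the longest annotated 3′ UTR of DICER1, which is 4270 bases long. The same word is in 14.6% of 19309 annotated 3′ UTRs and in 38.8% of the 2353 that are at least 4000 bases long. These shares, and those given below for other words, count UTRs that hold a word at least once. How many UTRs hold a word several times was not counted. The sites are named by the position of their first matching base in the UTR and shown in transcript sense (GENCODE 29), with the match in capitals.
DICER1 site 1034: acacctaaaatATGCTGCagatt
DICER1 site 1635: tgcttcgtggaATGCTGCattta
DICER1 site 2839: cagtcctaactATGCTGCgtttt
DICER1 site 4110: tttaccatcacATGCTGCagctg
DICER1 site 4162: atacagtaatcATGCTGCagaaa
Among the other genes the word occurred 5 times in AGO2, 3 times in AGO1, 2 times in AGO4 and once each in AGO3 and TARBP2, and was not found in TNRC6A, DROSHA, DGCR8 or XPO5. A match describes letters only. Small RNAs were not measured in these libraries.

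A further pair of 7-base words, AACACCT and ACACCTA, had been linked to lower transcripts in an earlier analysis of these same counts, so their presence here is no independent evidence. AACACCT was in 10.7% of all 3′ UTRs and in 30.3% of the long ones, and ACACCTA in 7.66% and 22.4%. The words overlap each other by 6 letters, and they were searched in the sense strand only, as were the seed matches. They are shown because 1 site lies beside a match to that seed in the DICER1 UTR, and because the others lie in transcripts that moved the other way.
DICER1 site 1023: ttagacatatcACACCTAaaata
AGO3 site 11245: gacccaaaggcACACCTAttctc
TNRC6A site 4653: gttcagttacaAACACCTctctg
Of the 3 transcripts with such a word DICER1 was lower and AGO3 and TNRC6A were higher in the shCDK5RAP3 libraries, as described below. The other 7 genes hold neither word. The let-7 match CTACCTC, in 11.2% of all 3′ UTRs and 31.2% of the long ones, occurred in AGO1, AGO2, AGO3 and TARBP2. The miR-17 match GCACTTT, in 22.3% of all and 60.3% of the long ones, occurred 8 times in AGO3, whose 3′ UTR of 16755 bases is the longest of the 10, 3 times in AGO2, 2 times each in AGO1 and TNRC6A, and once in AGO4.

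**Figure D1:**
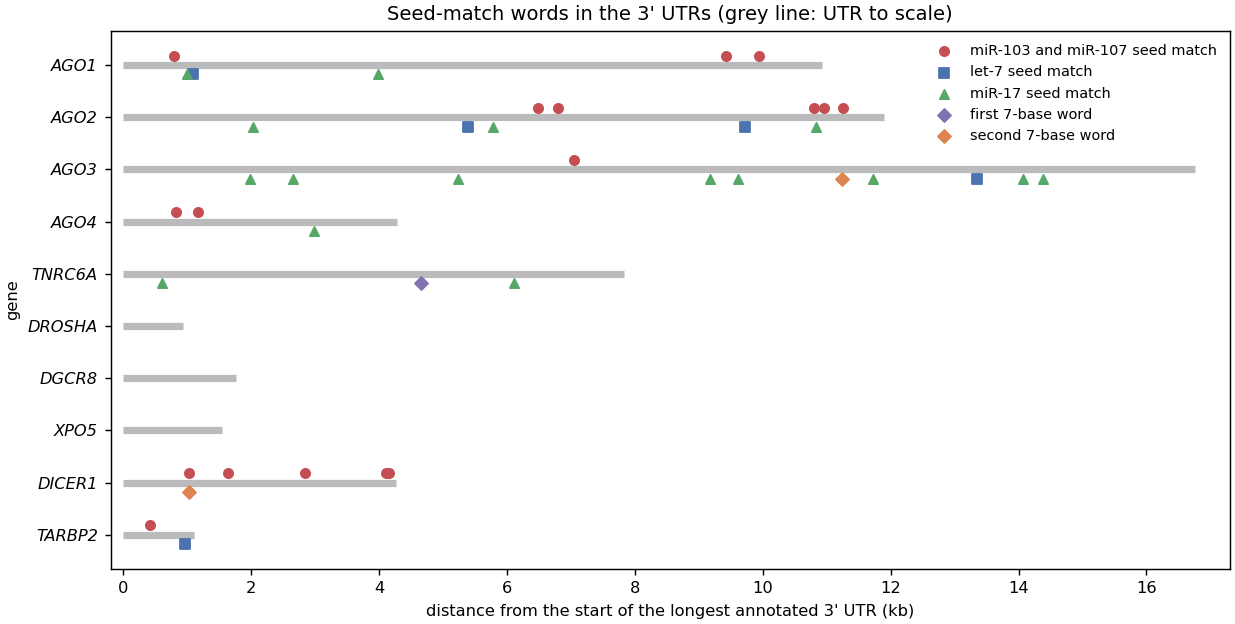
Positions of the seed-match words (coloured symbols) along the longest annotated 3′ UTR of each gene (grey line, x axis in kb from the start of the UTR); the first 7-base word is AACACCT and the second ACACCTA. DICER1 holds 5 matches to miR-103 and miR-107 within 4270 bases, and the 3′ UTRs of DROSHA, DGCR8 and XPO5, of 935 to 1767 bases, hold none of the words.

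CDK5RAP3 mRNA was at 62.1% of its control level (log2 change -0.69, SE 0.08; edgeR adjusted p = 0.000163). Total counts were 28653689 to 30138393 per library, and a single count in these genes was worth little, since the lowest count of any of the 10 in any library was 796. Among markers of the noradrenergic line, TH, the first enzyme of catecholamine synthesis, had 321 and 380 CPM (counts scaled to library size) with shControl against 159 and 175 CPM with shCDK5RAP3 (log2 change -1.07), and DBH, which makes noradrenaline, had 72.8 and 74.5 CPM against 27.0 and 25.7 CPM (-1.48; edgeR adjusted p = 3.19e-05 and 2.86e-06). MYCN mRNA was at 59.3% of its control level (log2 change -0.75, edgeR adjusted p = 6.74e-06). Of the 12 markers of this list 10 fell and 0 rose, and GATA3 (-0.11) and ELAVL4 (0.10) did not pass. The 10 leukocyte, endothelial and epithelial markers summed to 10.6 and 11.1 CPM with shControl against 5.29 and 6.08 CPM with shCDK5RAP3, with CD3E and CDH1 at 0 in all 4 libraries; of 6 tested, CDH5, EPCAM and KRT19 fell and none rose. The 6 Schwann cell markers summed to 3.94 and 3.10 against 1.58 and 2.30 CPM, with SOX10 and CDH19 at 0. The 10 fibroblast markers summed to 798 to 813 CPM in the shControl and 575 to 585 CPM in the shCDK5RAP3 libraries, with FAP at 0, but they did not move as a set. Of 9 tested, 4 fell, among them PDGFRB (log2 change -2.32) and LUM (-1.21), which carry most of the lower sum, and 3 rose, namely ACTA2 (2.06), TAGLN (2.13) and THY1 (0.22). What these shifts contribute to the values below was not tested, and in bulk RNA fewer cells of a kind cannot be told apart from less RNA per cell.

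The change in the 10 genes was uneven. DICER1 fell, while DGCR8, AGO4, TNRC6A, AGO3 and XPO5 rose, and AGO1, AGO2, DROSHA and TARBP2 did not pass the test. That is 5 genes higher and 1 lower of 10, where 19.7% of the 18775 tested genes passed upward and 21.8% downward (41.5% in all; edgeR's quasi-likelihood test, adjusted p under 0.05 over all tested genes). All 10 are well expressed, and well expressed genes pass more often. Among the 6133 tested genes at least as abundant as AGO4, the least abundant of the 10, 59.8% passed, 34.4% upward and 25.4% downward. The groups did not overlap in 7 of the 10 genes (the 6 called and TARBP2), against 71.4% of all tested genes. The share of 6 called in 10 is close to that of genes of like abundance, and this count does not set the 10 genes apart. Without either shCDK5RAP3 library 3 of the 10 were called higher, and without a filter on low counts 2. The median log2 change of the 10 genes was 0.19, against a median of -0.00 over all tested genes. Of the 6133 abundant genes 48.8% had a lower log2 change than TARBP2 (0.06) and 50.9% than AGO2 (0.08). The median of those genes thus lay between these values.

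**Figure D2:**
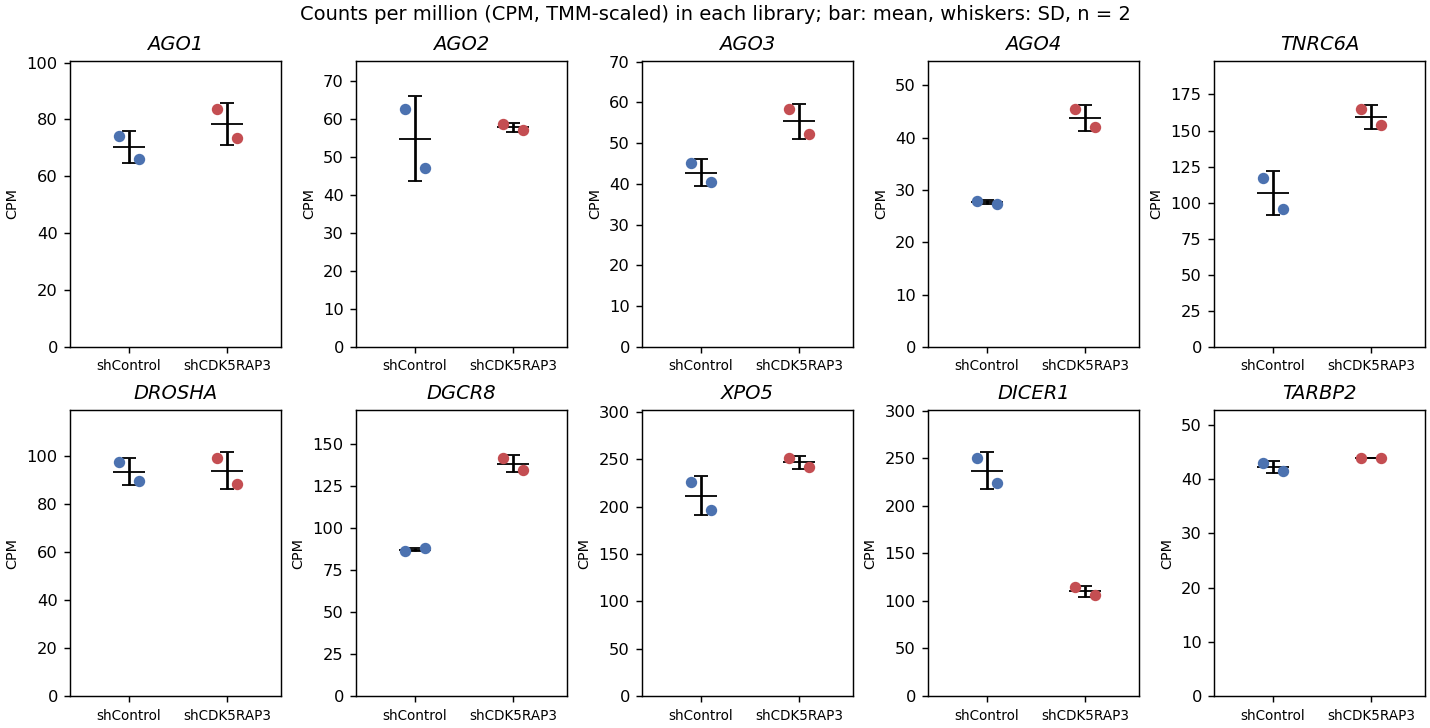
CPM of each gene (y axis, from 0) in the 2 shControl (blue) and 2 shCDK5RAP3 (red) libraries, with the mean (bar) and SD (whiskers). The groups lie apart for 7 genes; DICER1 is the gene whose shCDK5RAP3 libraries lie below, at 106 and 114 CPM against 224 and 251 CPM.

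DICER1, the cytoplasmic nuclease that turns precursors into miRNA duplexes (ENSG00000100697, GRCh38 chr14:95086228-95158010, minus strand), had 7251 and 6504 counts with shControl against 3261 and 3134 with shCDK5RAP3. Each shCDK5RAP3 library lay below both shControl libraries, by a margin several times the gap between libraries of a group. In CPM this was 237 ± 19.0 against 110 ± 5.86 (SD, n = 2 each), or 46.4% of control (log2 change -1.11, SE 0.08; edgeR adjusted p = 1.21e-05). CDK5RAP3 itself stood at 62.1% of control, and the difference between the genes was not tested. Of the 6133 genes of at least AGO4's abundance, 2.46% had a lower log2 change than DICER1. The call held in every alternative that was run, with log2 changes from -1.19 to -0.99 and adjusted p up to 0.0113.

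DICER1-AS1, a non-coding gene that starts at the DICER1 promoter and runs the opposite way, went in the same direction. It had 199 and 229 counts with shControl and 112 and 129 with shCDK5RAP3 (log2 change -0.83, SE 0.18; edgeR adjusted p = 0.00604). The call was lost without shCDK5RAP3 replicate 1 (0.0607) and without replicate 2 (0.0526). The genes share 80 exonic bases, 0.651% of those of DICER1, and whether strand was used in counting is unstated in these sources, so reads of the shared bases cannot be told apart; the same holds for the other overlaps given below.

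TARBP2, the double-stranded RNA-binding partner of DICER1 (ENSG00000139546, chr12:53500921-53506431, plus strand), had 1246 and 1207 counts with shControl and 1255 and 1301 with shCDK5RAP3 (log2 change 0.06, SE 0.08; edgeR adjusted p = 0.605). Its shCDK5RAP3 libraries, at 44.0 CPM each, were just above the shControl libraries at 41.5 and 43.1 CPM. To set genes side by side, counts were also divided by the merged length of a gene's annotated exons (RPKM, here CPM per kilobase). The ratio of DICER1 to TARBP2 in RPKM was 1.94 and 1.79 with shControl against 0.864 and 0.801 with shCDK5RAP3. The groups did not overlap, but with 2 libraries in each the smallest p an exact permutation test allows is 0.33. The size of the ratio in either group depends on the lengths used. TARBP2 has 4090 merged exonic bases but a longest annotated transcript of 1867, against 12294 and 10331 for DICER1. PRKRA (PACT), a paralog of TARBP2 that also binds DICER1, was nearly level, with 1658 and 1691 counts against 1598 and 1788 (log2 change 0.01, edgeR adjusted p = 0.917).

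In the Microprocessor the partners differed. DGCR8 (ENSG00000128191, chr22:20080232-20111877, plus strand) had 2500 and 2556 counts with shControl and 4053 and 3985 with shCDK5RAP3. Both shCDK5RAP3 libraries were far above both shControl libraries, and the 2 libraries of each group were close together. Its level was 1.59 times that of control, 138 ± 5.13 CPM against 87.2 ± 1.06 (SD, n = 2 each), a log2 change of 0.67 with an SE of 0.06 (edgeR adjusted p = 6.76e-05). This was a larger log2 change than that of 95.1% of the genes at least as abundant as AGO4. It passed in every alternative that was run (adjusted p up to 0.0138). DGCR8 shares 526 exonic bases, 7.19% of its own, with the antisense gene AC006547.2, which had at most 1 count in each library. It shares 12 with the opposite-strand gene TRMT2A, which did not pass (edgeR adjusted p = 0.204).

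DROSHA, the nuclease (ENSG00000113360, chr5:31400497-31532196, minus strand), had 2814 and 2602 counts with shControl and 2831 and 2612 with shCDK5RAP3. The groups overlapped fully (log2 change 0.00, SE 0.08; edgeR adjusted p = 0.966), and the sign of the change turned under 4 alternatives. The RPKM ratio of DGCR8 to DROSHA was 0.945 and 1.04 with shControl against 1.52 and 1.62 with shCDK5RAP3, again without overlap and with an exact permutation p of 0.33. Per length, DGCR8 transcripts thus stood near parity with those of DROSHA in control cells. After the hairpin against CDK5RAP3 they stood at more than 1.5 to 1 over DROSHA. The ratio of DICER1 to DROSHA moved the other way, from 1.63 and 1.58 to 0.729 and 0.759.

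XPO5, the export receptor (ENSG00000124571, chr6:43522330-43576075, minus strand), is the most abundant of the 10 per length. It had 6541 and 5724 counts with shControl and 7182 and 7152 with shCDK5RAP3. The lower shCDK5RAP3 library, at 242 CPM, was above the higher shControl library at 226 CPM, but the 2 shControl libraries were nearly as far apart as the groups. The rise was 1.17-fold (log2 change 0.22, SE 0.08; edgeR adjusted p = 0.0434). It is the weakest of the 6 calls and was lost when libraries were scaled by total counts alone (adjusted p = 0.0701), without a filter on low counts (0.213), and without shControl replicate 2 (0.215), shCDK5RAP3 replicate 1 (0.238) or shCDK5RAP3 replicate 2 (0.188). XPO5 shares 348 exonic bases, 4.08% of its own, with the opposite-strand gene POLR1C, a subunit of RNA polymerases I and III, which rose as well (log2 change 0.46, edgeR adjusted p = 0.00257; 0.0526 without shCDK5RAP3 replicate 2).

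The Argonautes are close paralogs, and how reads matching several of them were counted is unstated. AGO4, AGO1 and AGO3 lie in that order in a row on chromosome 1, all on the plus strand (chr1:35808172-35857890, chr1:35869808-35930528 and chr1:35930718-36072500), and AGO2, which encodes the Argonaute known for cutting perfectly paired targets, lies on chromosome 8. AGO4 (ENSG00000134698) had 807 and 796 counts with shControl and 1299 and 1243 with shCDK5RAP3. The rise was 1.58-fold, 43.8 ± 2.46 CPM against 27.6 ± 0.364 (SD, n = 2 each), a log2 change of 0.66 with an SE of 0.09 (edgeR adjusted p = 0.00039), and it passed in every alternative that was run.

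AGO3 (ENSG00000126070) had 1304 and 1176 counts with shControl and 1669 and 1547 with shCDK5RAP3. The groups did not overlap, with 40.5 and 45.1 CPM against 52.3 and 58.5 CPM (log2 change 0.37, SE 0.09; edgeR adjusted p = 0.0098). This call was lost without a filter on low counts (0.0906), without shCDK5RAP3 replicate 1 (0.113) and without shCDK5RAP3 replicate 2 (0.0543).

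AGO1 (ENSG00000092847), which lies between them, had 2150 and 1924 counts against 2391 and 2168. In CPM the groups overlapped, with 66.2 and 74.3 in the shControl and 73.3 and 83.8 in the shCDK5RAP3 libraries (log2 change 0.16, SE 0.09; edgeR adjusted p = 0.18). It passed with a correction for transcript length (log2 change 0.28, adjusted p = 0.00445). AGO2 (ENSG00000123908) had 1816 and 1368 counts against 1677 and 1688. Its shCDK5RAP3 libraries lay between the shControl libraries (log2 change 0.08, SE 0.12; edgeR adjusted p = 0.651), and the answer turned on which control was kept: the log2 change was 0.30 without shControl replicate 1 (adjusted p = 0.0224) and -0.12 without shControl replicate 2 (0.319).

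Per length, the summed level of the 4 Argonautes was 15.3 and 13.4 RPKM in the shControl and 18.8 and 17.1 RPKM in the shCDK5RAP3 libraries. AGO1 held the largest share in the controls, 35.3% ± 0.359 (SD, n = 2), followed by AGO4 with 26.6% ± 2.10, AGO2 with 24.0% ± 2.68 and AGO3 with 14.1% ± 0.220. In the shCDK5RAP3 libraries AGO4 held 33.6% ± 0.267, AGO1 31.5% ± 0.947, AGO2 20.4% ± 0.892 and AGO3 14.6% ± 0.212 (SD, n = 2 each). The share of AGO4 was higher by 6.96 percentage points and those of AGO1 and AGO2 differed by -3.80 and -3.64 points, without overlap between the groups. Without shControl replicate 1 the difference for AGO2 was -1.75 points and without shControl replicate 2 it was -5.54, and without length scaling that for AGO4 was 4.38 and that for AGO3 1.60 in place of 0.48. The exact permutation p is 0.33 for each, the smallest this design allows. Shares depend on the lengths used, since most of the exon length of these genes is 3′ UTR and the ends in use were not measured.

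**Figure D3:**
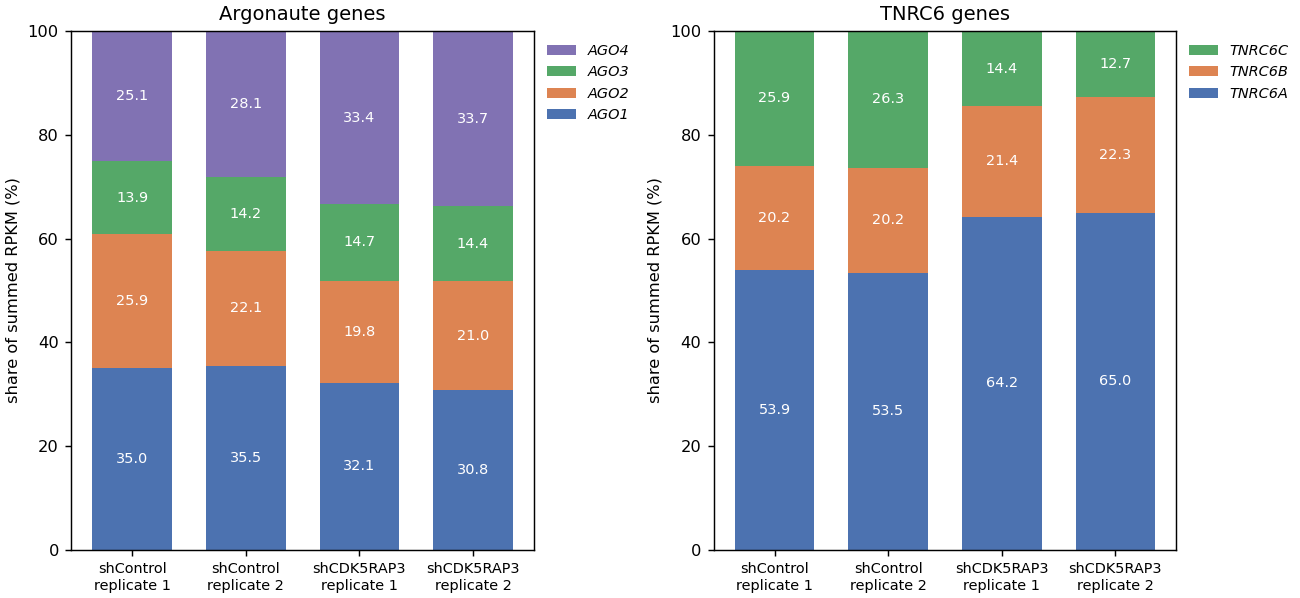
Share of each gene in the summed RPKM of AGO1 to AGO4 (left) and of TNRC6A to TNRC6C (right), in percent, 1 bar per library. AGO4 is larger in both shCDK5RAP3 bars (33.4% and 33.7%) than in the shControl bars (25.1% and 28.1%), and TNRC6C is smaller (14.4% and 12.7% against 25.9% and 26.3%).

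TNRC6A, the scaffold that ties Argonaute to the deadenylases (ENSG00000090905, chr16:24610209-24827632, plus strand), had 3392 and 2788 counts with shControl and 4714 and 4545 with shCDK5RAP3. Both shCDK5RAP3 libraries were above both shControl libraries, at 154 and 165 CPM against 95.9 and 117 CPM. The rise was 1.5-fold, 159 ± 8.12 CPM against 107 ± 15.1 (SD, n = 2 each), a log2 change of 0.58 with an SE of 0.09 (edgeR adjusted p = 0.00121). Without a filter on low counts the adjusted p was 0.0595.

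Its paralogs split. TNRC6B rose, from 1962 and 1631 counts to 2432 and 2410 (log2 change 0.43, SE 0.09; edgeR adjusted p = 0.0055). TNRC6C fell, from 1401 and 1180 counts to 908 and 765 (log2 change -0.63, SE 0.12; edgeR adjusted p = 0.00346). TNRC6C shares 12.9% of its exonic bases with an antisense gene, so its value is uncertain. Both calls were lost without a filter on low counts (0.0987 and 0.0781) and without shCDK5RAP3 replicate 2 (0.0813 and 0.0807), and that of TNRC6B without shCDK5RAP3 replicate 1 (0.0766). Of the summed RPKM of the 3 paralogs, TNRC6A made up 53.7% ± 0.329 in the shControl and 64.6% ± 0.561 in the shCDK5RAP3 libraries, and TNRC6C 26.1% ± 0.291 and 13.6% ± 1.17 (SD, n = 2 each; exact permutation p = 0.33, the smallest possible).

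**Figure D4:**
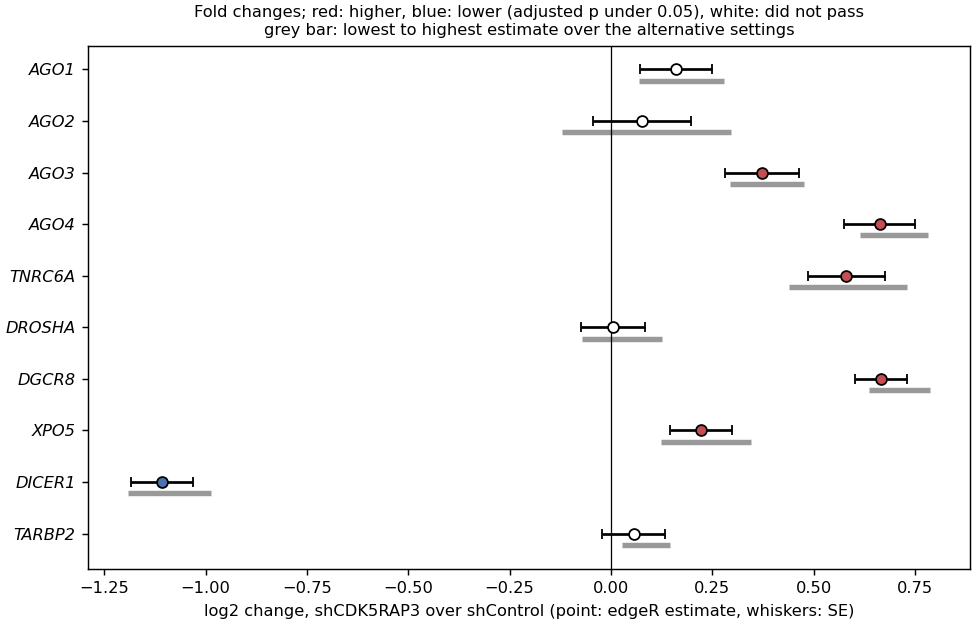
Log2 change of each gene, shCDK5RAP3 over shControl (x axis; point, edgeR estimate; whiskers, SE), with the range over the alternative settings as a grey bar. DICER1 lies at -1.11 with a range of -1.19 to -0.99, and the ranges of AGO2 and DROSHA cross 0.

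Read as levels per length, the order of the 10 genes in the shControl libraries was XPO5 (mean 24.8 RPKM), DICER1 (19.3), DROSHA (12.0), DGCR8 (11.9), TARBP2 (10.3), TNRC6A (8.25), AGO1 (5.06), AGO4 (3.80), AGO2 (3.47) and AGO3 (2.02). DROSHA and DGCR8 overlapped in this order, as did AGO4 and AGO2, and the libraries of other neighbours did not overlap. In the shCDK5RAP3 libraries XPO5 (28.9 RPKM) was followed by DGCR8 (18.9), TNRC6A (12.3), DROSHA (12.0), TARBP2 (10.8), DICER1 (8.95), AGO4 (6.02), AGO1 (5.65), AGO2 (3.66) and AGO3 (2.62). Here TNRC6A overlapped with DROSHA, DROSHA's lower library stood above TARBP2, and AGO4 overlapped with AGO1. By these lengths DICER1 moved from the second place to the sixth. The order within a group depends on the lengths used. TARBP2 has 4090 merged exonic bases but a longest annotated transcript of 1867, against 12294 and 10331 for DICER1.

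Libraries of a group were not alike in these genes. Replicate 1 had more CPM than replicate 2 for 9 of the 10 genes in the shControl pair (DGCR8 excepted) and for 9 of 10 in the shCDK5RAP3 pair (TARBP2 excepted). The widest gap was that of AGO2 between the controls (log2 of replicate 2 over replicate 1, -0.42), followed by TNRC6A (-0.29) and XPO5 (-0.20). The same direction was seen in long transcripts as a class. For protein-coding genes at least as abundant as AGO4, the median log2 of shControl replicate 2 over 1 was -0.13 for the 938 genes with 10000 or more exonic bases, -0.01 for the 4087 genes of intermediate length and 0.11 for the 909 with under 3000. In the shCDK5RAP3 pair these medians were -0.06, 0.00 and 0.09. The median log2 change between the groups was 0.00, 0.06 and 0.15 in the same order. Of the 10 genes, XPO5, DROSHA, DGCR8, AGO4 and TARBP2 (8522, 7780, 7315, 7267 and 4090 exonic bases) are of intermediate length. Whether length bears on the gaps of single genes, such as that of XPO5, was not tested. With offsets for transcript length, an alternative chosen after the data had been seen, DICER1 stood at -0.99, AGO4 at 0.78 and DGCR8 at 0.79, and 6 of the 10 genes were called higher and 1 lower. That correction moved all genes: 4813 were called higher and 3615 lower of 17556, or 57.1% of calls higher against 47.5% without it, and the median log2 change was 0.06.

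The wider pathway was read from 6 lists of cofactors, with 142 of 143 genes matched, 124 tested, 32 higher and 28 lower. Together 48.4% of the tested genes passed, with a median log2 change of 0.03. Of all tested genes 41.5% passed, and of those at least as abundant as AGO4 59.8%. Some listed genes are less abundant than AGO4, so neither share is matched to the lists.

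Of 18 Microprocessor cofactors 5 rose, 4 fell and 9 did not pass, with a median log2 change of -0.01. The share that passed, 50%, lies between that of all tested genes (41.5%) and that of genes at least as abundant as AGO4 (59.8%). The cap-binding complex, which joins nascent transcripts to processing, split into its subunits: NCBP1 rose from 3033 and 2977 counts to 4656 and 4814 (log2 change 0.65), and NCBP2 fell from 4072 and 4236 counts to 2639 and 2527 (-0.69; edgeR adjusted p = 5.8e-05 and 7.7e-05). ERH, a small protein that binds DGCR8, rose (0.58), with the reservation that 25.8% of its exonic bases overlap SLC39A9 on the other strand. HNRNPA1, which binds the loop of some primary transcripts and has many processed pseudogenes, fell (-0.61).

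Among 15 tested partners of DICER1 and modifiers of precursors 2 rose, 1 fell and 12 did not pass. The share that passed, 20%, is below the 41.5% of all tested genes. TENT2 (GLD2), a poly(A) polymerase that extends miRNA 3′ ends, rose from 895 and 919 counts to 1628 and 1743 (log2 change 0.89, SE 0.08; edgeR adjusted p = 4.13e-05). Translin and its partner, which together degrade the passenger strand in the form known as C3PO, went apart: TSN rose (0.53) and TSNAX fell (-0.80), the latter overlapping a read-through gene in 10.5% of its exonic bases. LIN28B, which blocks let-7 maturation, had 1560 and 1364 counts against 1266 and 1251 (log2 change -0.22, SE 0.09; edgeR adjusted p = 0.0814). LIN28B passed without shControl replicate 2 (0.0169). LIN28A had 6 counts or fewer in each library and was not tested.

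Of 22 genes for Argonaute loading and partners 10 rose, 3 fell and 9 did not pass, with a median of 0.23. The share that passed, 59.1%, is close to that of genes as abundant as AGO4 or more. Chaperones that open Argonaute for a duplex differed among themselves. HSP90AA1 rose from 1164 ± 14.4 to 1889 ± 55.2 CPM (SD, n = 2 each), a log2 change of 0.70 (edgeR adjusted p = 1.53e-05). Named after their values were seen, HSPA8 (0.47) and the cochaperones FKBP4 (0.51) and PTGES3 (0.38) rose too, FKBP5 fell (-0.41), and HSP90AB1, the most abundant HSP90 gene, did not pass, with 2733 and 2666 CPM in the mean of shControl and shCDK5RAP3 (-0.04, edgeR adjusted p = 0.588). TRIM71 (LIN41), a let-7 target and ubiquitin ligase, rose from 284 and 252 to 479 and 582 counts (0.98). AJUBA, a LIM protein that binds Argonaute, rose (0.74; edgeR adjusted p = 0.0842 without a filter and 0.0908 without shCDK5RAP3 replicate 2), and FXR1, an RNA-binding paralog of FMR1, fell (-0.67).

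Of 33 deadenylation and decapping genes 9 rose and 9 fell, with a median of 0.05. The share that passed, 54.5%, lies between that of all tested genes (41.5%) and that of genes at least as abundant as AGO4 (59.8%). The cytoplasmic poly(A)-binding protein PABPC4 had the steepest fall, from 6904 and 7048 counts to 3120 and 3093 (log2 change -1.17, SE 0.06; edgeR adjusted p = 3.15e-06). The CCR4-NOT recruiters TOB2 (0.77) and BTG2 (-0.84) moved in opposite directions. CNOT3, a subunit of CCR4-NOT, rose (0.60), a call lost without a filter on low counts (0.0906) and without shCDK5RAP3 replicate 1 (0.136).

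**Figure D5:**
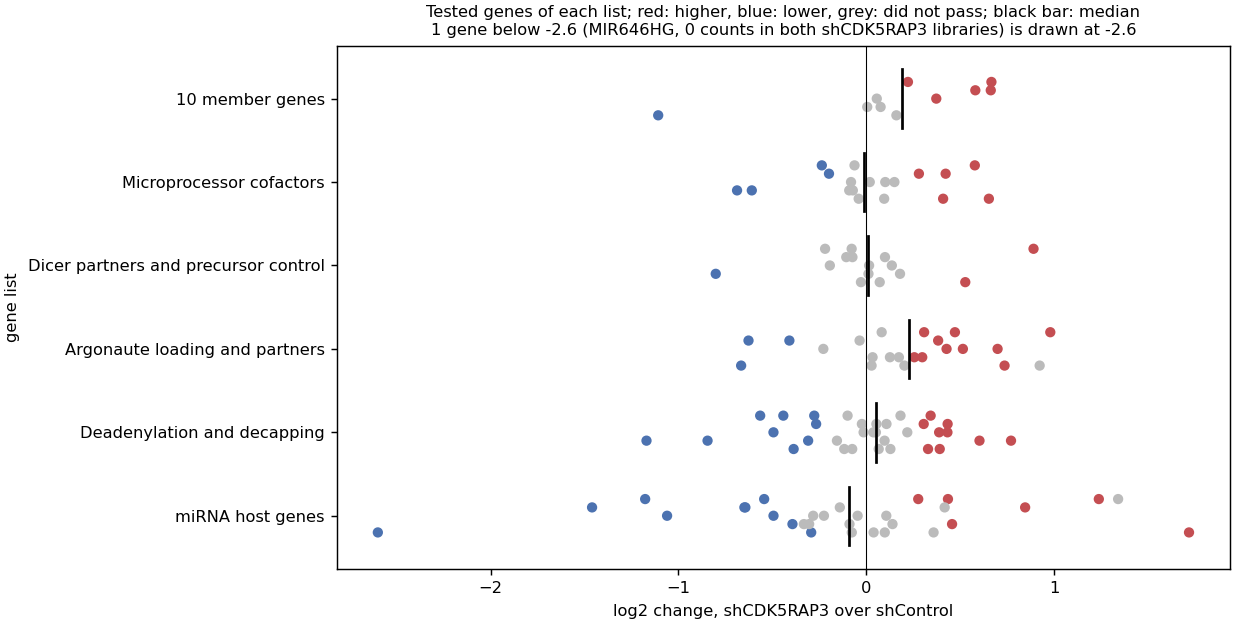
Log2 change of every tested gene (points) in the 10 genes and in 5 lists of the wider pathway, with list medians as black bars and MIR646HG, at 0 counts in both shCDK5RAP3 libraries, drawn at the left edge. Points lie on both sides of 0 in each list, and the medians lie between -0.09 and 0.23.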

How the data were processed

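TRIzol-extracted RNA went into TruSeq libraries, per the labels' protocols. The authors deposited whole-number counts per Ensembl gene, unscaled; StringTie, HISAT2 2.2.0 and the build hg38 are listed, without roles, per the submitters' processing notes. Not given in the sources used here: annotation release, strand setting and handling of multi-mapping reads. Symbols, exon lengths and 3′ UTRs came from GENCODE 29 and a table of gene names.

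Counts were tested with edgeR 4.0.16 in R 4.3.3 (TMM factors, default filter, quasi-likelihood test, Benjamini-Hochberg over 18775 genes, threshold 0.05), with no replicate block. Log2 changes are shCDK5RAP3 over shControl, and SE is the log2 change over the root of F. Alternatives used DESeq2 1.42.0, limma 3.58.1, other scalings and filters, a block, each library left out, and a length correction added after seeing the data. The procedure was tested on simulated data. The genes and lists were chosen with earlier results of these data known. Named beyond the 10 genes are, per list, up to 4 called genes with the largest change and a log2 CPM of at least 1, plus TNRC6B, TNRC6C, PRKRA and LIN28B, and genes overlapping the 10; markers and other genes named were chosen after their values were seen. The summed level of the noradrenergic marker list is not reported here.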

Additional observations from a re-analysis of the deposited data

How the results depend on the processing

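The fall of DICER1 and the rises of DGCR8 and AGO4 kept direction and call under every alternative run. Without a filter on low counts 4488 genes were called in place of 7792, and 2 of the 10 genes higher in place of 5. Leaving out each library in turn gave 3752 to 7329 genes called, 3 to 6 of the 10 genes higher, 18 to 33 pathway genes higher and 13 to 30 lower. A lone library left in a group was taken to have the spread of the other group. Without length scaling the differences in share were -2.66 points for AGO1, 1.60 for AGO3 and 4.38 for AGO4. With length scaling, leaving out each library in turn gave -5.54 to -1.75 points for AGO2. The fewest genes over the whole table were called without shCDK5RAP3 replicate 2. Among the genes named, signs turned for 5 that did not pass. Scaling by total counts alone gave -0.0233 for DROSHA, -0.0177 for PRKRA and -0.0193 for TDRKH, no filter gave -0.0054 for DROSHA, and the length correction gave 0.0191 for TDRD1. Leaving out each library gave -0.120 to 0.296 for AGO2, -0.0717 to 0.0828 for DROSHA, -0.0487 to 0.0751 for PRKRA and -0.0832 to 0.103 for TDRKH. The cause of these changes was not tested. Replicate numbers are shared by the groups without a stated pairing. Deviations of same-numbered libraries correlated at 0.147 across 13893 genes, and with a replicate block 9148 genes were called, 6 of the 10 higher and 1 lower, with 36 and 31 pathway genes, and AGO1 (edgeR adjusted p = 0.0321) and LIN28B (0.0218) passed. With 2 libraries a group, the call of a small change can be lost with the setting, as that of XPO5 was.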

Other observations

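Transcripts that host miRNAs, a list with 40 names of which 39 matched and 31 were tested, had 6 rises and 10 falls, with a median log2 change of -0.09. The share that passed was 51.6%, against 41.5% of all tested genes and 59.8% of those at least as abundant as AGO4. A host transcript is not a measure of the miRNA, since the hairpin is cut out of it. MIRLET7BHG, the host of let-7a-3 and let-7b, rose from 196 and 204 counts to 429 and 518 (log2 change 1.24 ± 0.15 SE, edgeR adjusted p = 0.000209). MIR99AHG, which hosts miR-99a, let-7c and miR-125b-2, fell from 212 and 170 counts to 72 and 67 (-1.46, edgeR adjusted p = 0.00068), so hosts of let-7 genes went both ways. MIR503HG fell (-1.18), a call lost without a filter on low counts (edgeR adjusted p = 0.0529) and without shCDK5RAP3 replicate 2 (0.0553), and CTDSPL, the host of miR-26a-1, fell (-1.06). Named outside the rule, MIR22HG had 15 and 24 counts against 68 and 61 (1.72), and MIR17HG, host of the miR-17 cluster, did not pass, with 412 and 472 counts against 398 and 359 (-0.23, edgeR adjusted p = 0.22). The pantothenate kinase genes, likewise outside the rule, host miR-103 and miR-107, whose seed matches occur 5 times in the DICER1 3′ UTR. PANK3, the most abundant, fell from 11081 and 10066 counts to 7527 and 7522 (-0.49), PANK2 rose (0.46, with an adjusted p of 0.0565 without shCDK5RAP3 replicate 2), and PANK1 did not pass (0.10, edgeR adjusted p = 0.459). PANK3 shares 13.7% of its exonic bases with a processed pseudogene and PANK2 9.77% with RNF24 on the other strand.

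The PIWI branch, the germline relative of the Argonaute pathway, was mostly silent. Of 14 genes 4 were at 0 in every library and 5 were tested. PIWIL2 had 8 and 12 counts in the shControl and 9 and 12 in the shCDK5RAP3 libraries. The tudor-domain genes TDRD1 and TDRKH were named after their values were seen. TDRD1, with 1577 and 1427 counts against 1314 and 1508, and TDRKH, with 892 and 788 against 796 and 901, did not pass (edgeR adjusted p = 0.427 and 0.949). PLD6, a mitochondrial outer-membrane protein of the pathway, fell (-0.65, edgeR adjusted p = 0.00129), with 17.6% of its exonic bases shared with a read-through gene.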
